A study of Mus musculus with 6 samples.

Results

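The 10 genes described here are 4 Notch ligand genes (Dll1, Dll3, Jag1, Jag2), 3 receptor genes (Notch1, Notch2, Notch3) and 3 target genes (Hes1, Hey1, Hey2). They were selected by symbol from the 55487 genes of the deposited count table, and each symbol matched 1 row. Expression was measured by poly(A) RNA sequencing of cells derived from mouse embryonic stem cells (ESCs), in 3 libraries from Ts1Cje mice and 3 from wild-type mice, each numbered as lot 1 to 3. Ts1Cje is a Down syndrome model with an extra copy of the distal part of chromosome 16, and it is also known to carry a deletion on chromosome 12. ESCs of both genotypes were kept with LIF and serum replacement. For 4 days they then received activin A, VEGF, BMP-4 and FGF2, a protocol meant to yield primitive macrophage progenitors. The labels do not say how many ESC lines were used or whether lots were separate cultures, so genotype and line cannot be told apart and p-values measure the spread between these lots.

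Notch receptors are single-pass membrane proteins that are activated by Delta or Jagged ligands on a neighbouring cell. Binding lets an ADAM protease and then gamma-secretase cut the receptor, and the freed intracellular domain joins RBPJ and Mastermind on DNA. HES and HEY genes, which encode repressors of the basic helix-loop-helix class, are the best known direct targets. In the early embryo the pathway times somite formation in paraxial mesoderm and helps to set arterial and hemogenic fate in endothelium.

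All 10 genes passed the filter on low counts, with 32 to 4000 reads in each library, which held 16577065 to 19010856 counts in total. On the first principal component, with 79.1% of the variance, the genotypes separated, and wild-type lot 1 (−50.0) lay nearer to Ts1Cje than lots 2 and 3 (−72.4 and −73.0). Ts1Cje lot 2 (55.8) in turn lay nearer to wild-type than Ts1Cje lots 1 and 3 (68.5 and 71.0). The macrophage markers Ptprc, Cx3cr1 and Fcgr1 had 0 counts in all 6 libraries and Adgre1 had 0 in Ts1Cje. Of the other 3 macrophage markers, Csf1r stood at 7.30 to 11.3 TPM over the 6 libraries and Spi1 was at most 0.383 TPM. Cd68, a lysosomal gene not limited to macrophages, had 9.70 to 19.1 TPM in wild-type and 17.1 to 25.5 TPM in Ts1Cje. Its ranges overlapped, and Cd68 was called higher in Ts1Cje (edgeR adjusted p = 0.0426). Levels are given as TPM, transcript abundance corrected for gene length and library size. The summed TPM of 12 endothelial markers was 427 to 449 in wild-type and 65.6 to 113 in Ts1Cje, and that of 7 lateral mesoderm markers 1407 to 2107 against 69.8 to 145.6. The 9 endoderm markers summed to 220 to 263 TPM in wild-type and 749 to 1021 in Ts1Cje, and 8 pluripotency and epiblast markers to 64.2 to 252 against 880 to 1165. In bulk libraries, fewer cells of a type and less RNA per cell cannot be told apart.

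Of the 10 genes, 4 passed the test between genotypes. Notch1, Hey1 and Hey2 were lower in Ts1Cje and Jag1 was higher, while Notch2, Notch3, Hes1, Dll1, Dll3 and Jag2 did not pass. Genotypes were set against each other in edgeR's quasi-likelihood test on counts, p-values were adjusted by Benjamini-Hochberg for the 17315 genes tested, and a gene was called at an adjusted p below 0.05. Across all genes it called 43.8% (23.3% higher and 20.5% lower), so the 40% of the Notch genes called is close to the background. Over 15 alternative analyses, 26.6% to 48.1% of all genes were called. The median log2 fold change of the 10 genes was −0.57, against −0.01 over all genes tested. It is the midpoint of a wide gap between Dll3 (−1.04) and Hes1 (−0.09), neither of which passed. In 5 of the 10 the TPM ranges of the genotypes did not overlap, against 54.5% of all genes tested (29% higher and 25.6% lower). Fold changes are Ts1Cje over wild-type, and their SE and 95% intervals were derived from the quasi-likelihood test and are approximate.

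**Figure D1:**
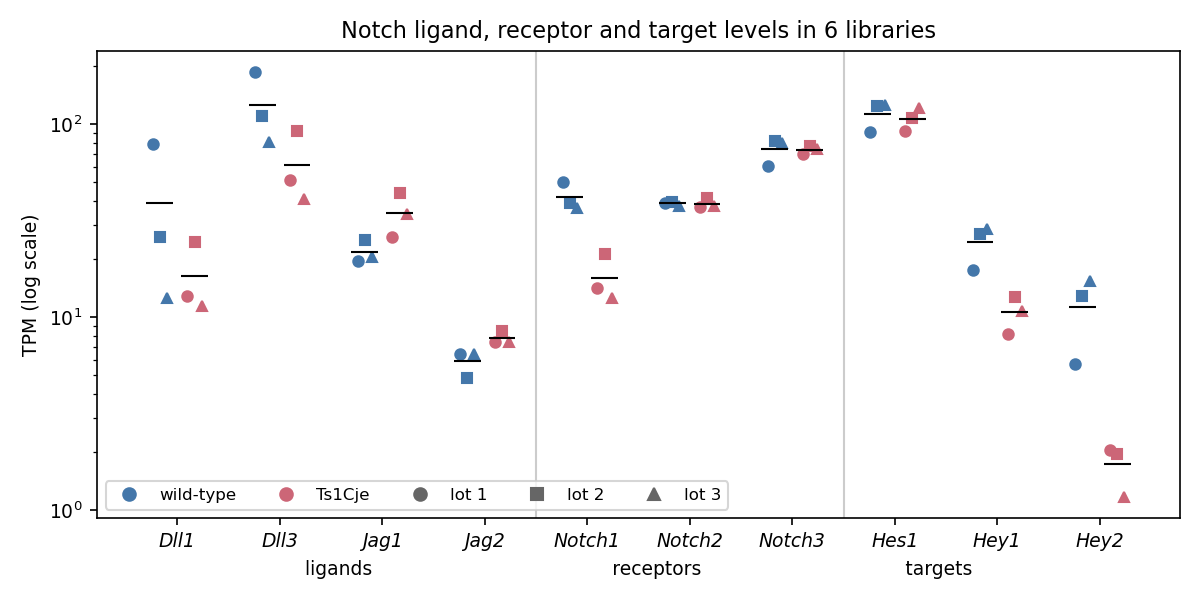
TPM on a log axis of the 10 Notch genes in wild-type (blue) and Ts1Cje (red) libraries, with a marker shape for each lot and a black bar at the mean of 3 libraries. Points of Notch1, Hey1 and Hey2 lie lower in Ts1Cje without overlap, and those of Notch2, Notch3 and Hes1 lie together.

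The upstream sequence of Hey2 is shown because Hey2 had the largest change of the 10 genes and because RBPJ, the DNA-binding partner of the cut receptor, has a known consensus. RefSeq promoter windows on GRCm38.p6 (mm10), 250 bases before to 50 after each start, were matched for 8 of the 10 genes, with 2 windows for Dll1. Hes1 and Hey1 had no entry. The letters CGTGGGAA and TGTGGGAA were searched on both strands, together with their shared core TGGGAA, which lies inside both. Hey2 held CGTGGGAA at 2 places, on opposite strands, from −207 to −200 and from −5 to 3 relative to the start (there is no base 0). The run below covers chr10:30842781-30843033 on the minus strand, 253 bases ending with the second match, and capitals mark the matches (the first reads as the reverse complement).
Hey2: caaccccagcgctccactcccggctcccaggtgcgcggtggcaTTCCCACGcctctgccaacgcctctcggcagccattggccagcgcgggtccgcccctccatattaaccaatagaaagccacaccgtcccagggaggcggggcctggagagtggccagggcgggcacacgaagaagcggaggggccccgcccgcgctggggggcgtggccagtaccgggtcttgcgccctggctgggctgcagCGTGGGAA

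Among all 32851 windows of that length, 0.734% held CGTGGGAA, 0.0122% (4 windows) held it at least 2 times, 1.86% held TGTGGGAA and 25.6% held TGGGAA. The windows of Notch1, Notch2, Notch3, Dll1, Dll3, Jag1 and Jag2 held none of the 3. A match describes letters in this window and does not show binding.

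The ligand genes differed from each other in how they varied. Dll1 encodes a Delta ligand of presomitic mesoderm and neural progenitors (ENSMUSG00000014773, chromosome 17, 15367354 to 15376872, minus strand, mm10). Its levels were 78.9, 25.9 and 12.6 TPM in wild-type lots 1, 2 and 3 and 12.9, 24.6 and 11.5 TPM in the Ts1Cje lots. Wild-type lot 1 stood above the other 5 libraries, at 3.04 times lot 2 and 6.24 times lot 3, and the remaining libraries of the genotypes overlapped. The log2 fold change was −1.26 ± 0.75 (SE, adjusted p = 0.244), with an interval from −3.19 to 0.67. Without wild-type lot 1 it was −0.27 (adjusted p = 0.704), so this lot carried most of the difference in means.

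Dll3 encodes a divergent Delta protein that does not activate receptors on neighbouring cells and acts within the cell in which it is made (ENSMUSG00000003436, chromosome 7, 28293553 to 28302238, minus strand). It had 185.6, 110.1 and 80.5 TPM in wild-type and 51.1, 92.2 and 40.7 TPM in Ts1Cje. Wild-type lot 1 was again highest and Ts1Cje lot 2 reached into the wild-type range. The log2 fold change of −1.04 ± 0.44 did not pass (adjusted p = 0.117). Dll3 passed without Ts1Cje lot 2 (−1.44, adjusted p = 0.0444) and with limma-voom (−1.06, adjusted p = 0.0263), whereas it was −0.67 without wild-type lot 1 (adjusted p = 0.290).

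Hes7, Lfng and Tbx6, which act with Dll1 and Dll3 in paraxial mesoderm, were also highest in wild-type lot 1 and, within Ts1Cje, in lot 2. Hes7, the oscillating repressor of the somite clock, had 12.0, 3.28 and 1.24 TPM in wild-type and 1.16, 2.26 and 1.31 TPM in Ts1Cje. Lfng, the Fringe enzyme of that clock, had 67.9, 31.4 and 24.1 TPM against 11.9, 26.4 and 11.3. Neither passed (adjusted p = 0.1099 and 0.0977), though Lfng passed with limma-voom and without Ts1Cje lot 2, and Hes7 with DESeq2, with no filter and without wild-type lot 3. Tbx6, a T-box factor needed for paraxial mesoderm, stood at 92.7, 34.2 and 16.8 TPM and at 10.9, 19.8 and 8.34 TPM. Tbx6 did not pass either (adjusted p = 0.0947). In all 3 genes the ranges of the genotypes overlapped.

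Of the 9 paraxial mesoderm markers, 7 were tested, 4 were lower in Ts1Cje and 0 higher, with a median log2 fold change of −1.88. Pcdh8 alone leaned upward and did not pass (log2 fold change 0.78 ± 0.74, edgeR adjusted p = 0.447). It had 13.6, 3.26 and 2.46 TPM in wild-type and 11.2, 15.8 and 6.19 TPM in Ts1Cje. Of the 7, 5 were highest in wild-type lot 1 and 5 in Ts1Cje lot 2. Tcf15 and Meox1 were the exceptions: Tcf15 had 3.99, 5.87 and 3.16 TPM in wild-type and 2.68, 1.99 and 1.73 TPM in Ts1Cje, and Meox1 was nearly level within wild-type (2.39, 2.35 and 2.55 TPM). The summed TPM of the 9 markers was 642.8, 366.9 and 317.3 in wild-type and 80.1, 159.7 and 57.8 in Ts1Cje. Msgn1, a paraxial mesoderm factor, fell from 195.9, 85.6 and 37.0 TPM to 6.56, 9.86 and 3.03 TPM (log2 fold change −4.04 ± 0.78, adjusted p = 0.0091). Highest levels in wild-type lot 1 or Ts1Cje lot 2 were not limited to paraxial mesoderm. Wild-type lot 1 was also highest for 8 of 8 pluripotency and epiblast markers and 6 of 9 endoderm markers. Ts1Cje lot 2 was highest for 7 of 7 lateral mesoderm markers and 5 of 9 endoderm markers. Wild-type lot 1 was highest for 0 of 7 lateral mesoderm markers, and Ts1Cje lot 2 for 0 of 8 pluripotency and epiblast markers. The part of these marker levels in the ligand values was not tested.

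**Figure D2:**
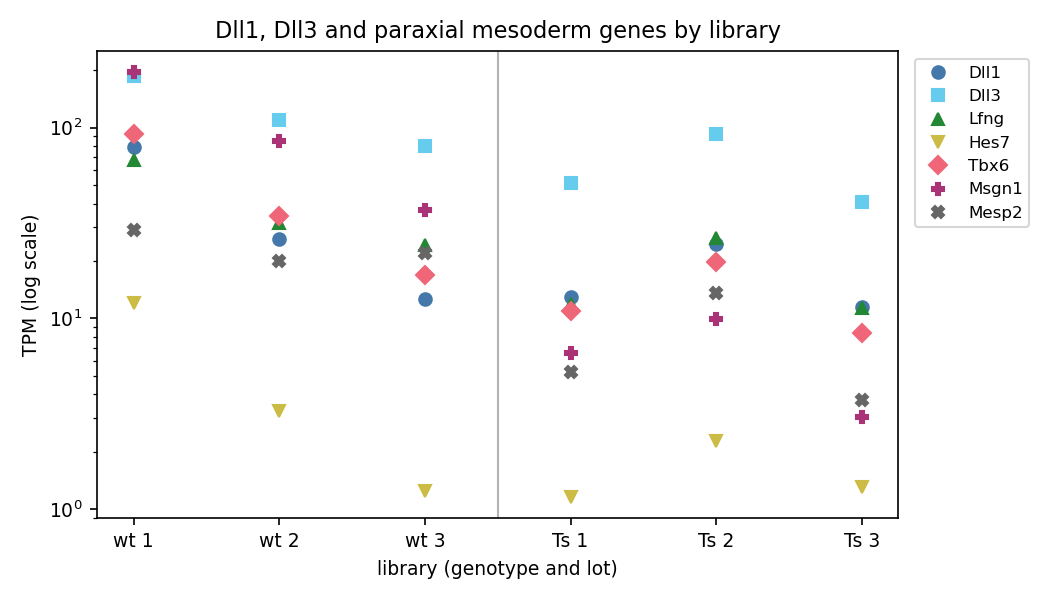
TPM on a log axis of Dll1, Dll3, Lfng, Hes7, Tbx6, Msgn1 and Mesp2 in each of the 6 libraries (wt, wild-type; Ts, Ts1Cje; number, lot). Each of the 7 genes is highest in wild-type lot 1, and Dll1, Dll3, Lfng, Hes7 and Tbx6 in Ts1Cje lot 2 overlap the wild-type range. Of the tested paraxial mesoderm markers, Mesp1, Pcdh8, Tcf15 and Meox1 are not drawn.

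Of the 4 ligand genes, Jag1 alone passed the test, and it rose. It encodes the Jagged ligand used in vessel, liver and inner ear development (ENSMUSG00000027276, chromosome 2, 137081456 to 137116644, minus strand). Its levels were 19.5, 25.0 and 20.5 TPM in wild-type and 25.9, 43.8 and 34.3 TPM in Ts1Cje. The ranges did not overlap, but wild-type lot 2 and Ts1Cje lot 1 lay side by side. The gene was 1.59-fold higher, a log2 fold change of 0.67 ± 0.18 (adjusted p = 0.0194, interval 0.24 to 1.09). This call was lost without wild-type lot 1 (0.58, adjusted p = 0.0685), wild-type lot 3 (0.64, 0.0678) or Ts1Cje lot 3 (0.67, 0.0576). Beside it, endoderm markers were higher in Ts1Cje for 9 of 9 and pluripotency and epiblast markers for 7 of 8, and their part in the Jag1 value was not tested.

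Jag2 encodes the second Jagged ligand (ENSMUSG00000002799, chromosome 12, 112907819 to 112929776, minus strand) and was the least abundant of the 4 ligand genes. It had 6.48, 4.83 and 6.44 TPM in wild-type and 7.46, 8.46 and 7.48 TPM in Ts1Cje. Ranges did not overlap, and the log2 fold change of 0.39 ± 0.15 just missed the threshold (adjusted p = 0.0562, interval 0.06 to 0.72). It passed without wild-type lot 1 (0.44, adjusted p = 0.0427).

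The ligand genes were also compared as shares of their summed TPM, in an exact permutation test. Its smallest p with 3 against 3 libraries, 0.1, lies above the threshold used for genes. No share could therefore pass, and the test cannot decide whether the shares differed. Summed over Dll1, Dll3, Dll4, Jag1 and Jag2, ligand TPM was 292.2, 168.3 and 121.3 in wild-type and 97.7, 169.7 and 94.3 in Ts1Cje (2-sided exact permutation test, p = 0.3). Jag1 made up 6.66%, 14.9% and 16.9% of it in wild-type and 26.5%, 25.8% and 36.4% in Ts1Cje. Dll3 made up 65.1 ± 1.45% and 49.9 ± 5.96% (SD, n = 3 each). The Dll1 share (17.6 ± 8.504% and 13.3 ± 1.17%, permutation p = 0.6) and the Jag2 share (3.47 ± 1.63% and 6.85 ± 1.62%, permutation p = 0.2) overlapped between genotypes. The Jag1, Dll3 and Dll4 shares did not overlap, and each gave p = 0.1 in the exact permutation test, the smallest that 3 against 3 libraries allow. Adjusted over the 11 shares and sums of receptor and ligand genes, that is 0.138.

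Among the receptor genes, Notch1 fell, and Notch2 and Notch3 did not pass the test. Notch1 encodes the receptor needed for arterial and definitive blood stem cell fate (ENSMUSG00000026923, chromosome 2, 26457903 to 26516663, minus strand). It stood at 49.9, 39.0 and 36.6 TPM in wild-type and at 14.1, 21.3 and 12.6 TPM in Ts1Cje. The ranges lay well apart, and the gene was 2.64-fold lower in Ts1Cje (log2 fold change −1.40 ± 0.21, adjusted p = 0.00252, interval −1.91 to −0.88). All 15 alternative analyses called it lower, between −1.64 and −1.25.

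Notch2, a receptor with broad expression in the embryo (ENSMUSG00000027878, chromosome 3, 98013527 to 98150361, plus strand), had 39.0, 39.6 and 37.8 TPM in wild-type and 37.2, 41.2 and 37.6 TPM in Ts1Cje. The log2 fold change was −0.01 ± 0.06 (adjusted p = 0.881), and its interval, −0.15 to 0.12, spans 0.901-fold to 1.09-fold. Notch3, best known from vascular smooth muscle (ENSMUSG00000038146, chromosome 17, 32120820 to 32166852, minus strand), was the most abundant receptor gene. Its levels were 60.8, 81.7 and 79.8 TPM in wild-type and 70.2, 76.6 and 73.8 TPM in Ts1Cje, with wild-type lot 1 lowest. The log2 fold change was −0.02 ± 0.11 (adjusted p = 0.891), with an interval of 0.822-fold to 1.18-fold.

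Receptor transcripts were compared in the same way. The Notch1 share of the summed TPM of Notch1 to Notch4 was 33.0%, 24.0% and 23.4% in wild-type and 11.5%, 15.1% and 10.1% in Ts1Cje. Notch3 made up 47.1 ± 6.06% and 57.0 ± 2.31%, and the receptor sum was 156.8 ± 5.51 TPM against 129.2 ± 9.86 TPM (SD, n = 3 each). Notch2 made up 24.8 ± 0.88% and 30.0 ± 0.59%, and Notch4 1.28 ± 0.16% and 0.81 ± 0.22%. Notch2 and Notch3 TPM was nearly level between genotypes, so their larger shares go with the smaller sum. For each receptor share and the sum, the groups did not overlap and the exact permutation test gave p = 0.1, its smallest value (0.138 after adjustment). Without any 1 library the Notch1 share was lower in Ts1Cje by 11.5 to 16.3 percentage points, against 14.6 with all libraries.

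**Figure D3:**
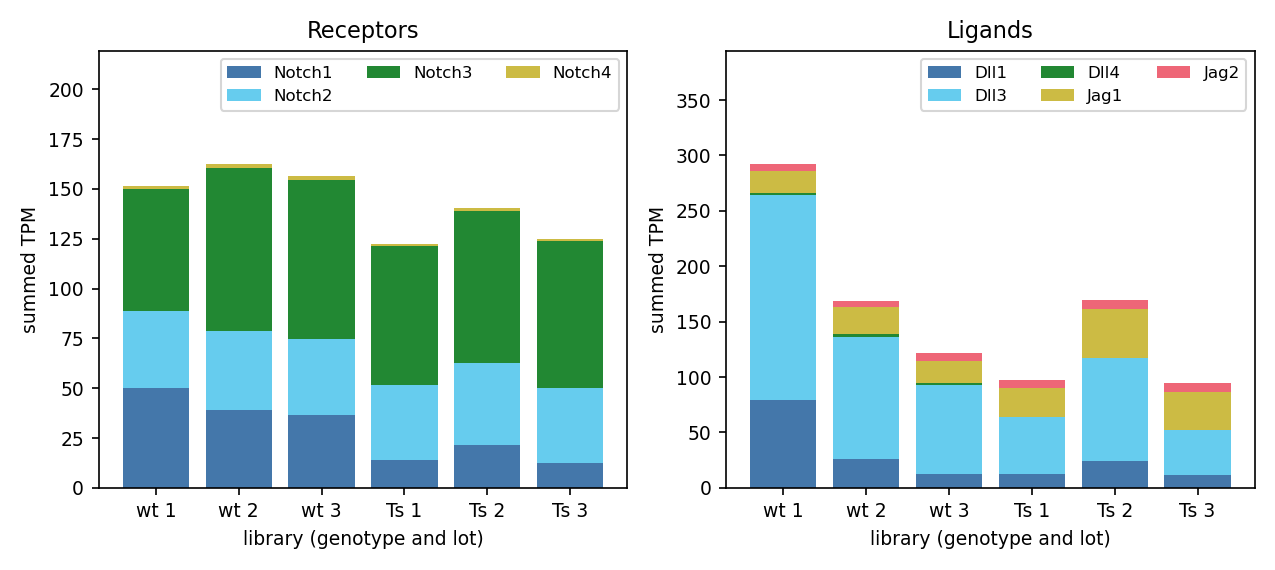
Summed TPM of Notch1 to Notch4 (left) and of 5 ligand genes (right) in each library, stacked by gene (wt, wild-type; Ts, Ts1Cje; number, lot). The Notch1 part is smaller in the 3 Ts1Cje bars, at 12.6 to 21.3 TPM against 36.6 to 49.9, and the ligand bar of wild-type lot 1 is the tallest at 292.2 TPM.

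Reads over Notch1 and Notch3 may include some from overlapping genes, since the counting strand is not given in the sources used here. Notch1 overlaps 3 annotated genes, whose highest count in a library was 415, and Notch3 overlaps the antisense gene Gm17276 with at most 322. The Notch1 difference stood against a median log2 fold change of 0.01 over the 175 tested genes within 5 Mb of it.

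The target genes split. Hey1 and Hey2 fell, and Hes1 did not pass. Hes1 encodes a repressor that keeps progenitors undifferentiated (ENSMUSG00000022528, chromosome 16, 30064384 to 30067796, plus strand). It lies at 30.1 Mb, far from the distal triplicated part of chromosome 16, which begins next to Sod1 at 90.2 Mb. Its levels were 90.4, 123.1 and 124.6 TPM in wild-type and 91.4, 106.8 and 121.1 TPM in Ts1Cje, so lot 1 was lowest in both genotypes and the ranges overlapped almost fully. The log2 fold change was −0.09 ± 0.15 (adjusted p = 0.654), with an interval of 0.736-fold to 1.19-fold.

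Hey1 encodes a repressor of arterial endothelium and heart (ENSMUSG00000040289, chromosome 3, 8663359 to 8667256, minus strand). It had 17.5, 27.0 and 28.6 TPM in wild-type and 8.20, 12.8 and 10.8 TPM in Ts1Cje. Lot 1 was lowest in both genotypes, the ranges did not overlap, and the gene was 2.33-fold lower (log2 fold change −1.22 ± 0.22, adjusted p = 0.00223). Hey2, which acts with Hey1 in artery and ventricle (ENSMUSG00000019789, chromosome 10, 30832359 to 30842801, minus strand), had 5.69, 12.9 and 15.4 TPM in wild-type and 2.06, 1.95 and 1.18 TPM in Ts1Cje. It was 6.64-fold lower (log2 fold change −2.73 ± 0.42, adjusted p = 0.00151, interval −3.71 to −1.75), the largest change of the 10 genes. Both genes were called lower in all 15 alternative analyses. The Hey2 levels in Ts1Cje rest on 32 to 54 reads per library.

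**Figure D4:**
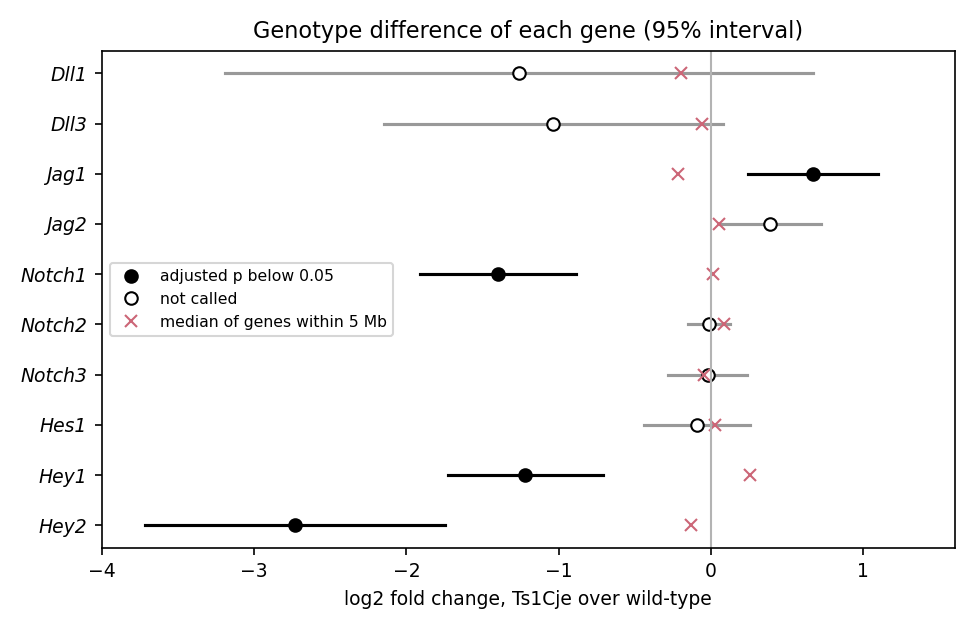
Log2 fold change (Ts1Cje over wild-type) of each Notch gene with its 95% interval, filled where the adjusted p was below 0.05, and a red cross at the median of tested genes within 5 Mb. Hey2 (−2.73), Notch1 (−1.40) and Hey1 (−1.22) lie left of 0 and Jag1 (0.67) right of it, while the crosses lie between −0.21 and 0.26.

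Neighbouring genes did not share these changes on average. The median log2 fold change within 5 Mb was 0.26 for Hey1 (20 tested genes), −0.13 for Hey2 (43 genes) and −0.21 for Jag1 (28 genes). Over the other 7 genes it ran from −0.19 (Dll1) to 0.09 (Notch2).

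Endothelial, lateral mesoderm and most paraxial mesoderm markers moved in the same direction as Notch1, Hey1 and Hey2. Of 11 tested endothelial markers 10 were lower in Ts1Cje and 0 higher (median log2 fold change −3.06), and Emcn had 0 counts in all libraries. Of 7 lateral mesoderm markers 7 were lower (median −3.84), and of 7 tested paraxial mesoderm markers 4 were lower and 0 higher (median −1.88). Within wild-type, lot 1 was lowest for Hey1 and Hey2, and also for 10 of the 11 endothelial markers, such as Cdh5 (6.09, 13.02 and 15.7 TPM) and Tie1 (2.31, 6.84 and 8.29 TPM). Among those 10, Kdr, the VEGF receptor gene, was nearly level (153, 154.6 and 163.8 TPM). Etv2, an early endothelial and blood progenitor factor, was highest in lot 1 (179.9, 125.7 and 102.4 TPM), as was Notch1. Within Ts1Cje, Notch1 was highest in lot 2. Tbx6, Msgn1, Mesp1, Mesp2 and Pcdh8 of the paraxial mesoderm list were likewise highest in wild-type lot 1 and Ts1Cje lot 2. Ts1Cje lot 2 was also highest for 7 of 7 lateral mesoderm and 6 of 11 endothelial markers. Wild-type lot 1 was also lowest for 7 of 7 lateral mesoderm markers. Within Ts1Cje the lots did not run alike: in lot 1, Hey1 was lowest and Hey2 highest. Of the 11 endothelial markers, 4 were highest and 4 lowest in that Ts1Cje lot. Arterial markers were mixed: Gja4, a connexin gene, fell (log2 fold change −2.59 ± 0.43, adjusted p = 0.000929) and Efnb2, an ephrin ligand gene, rose (0.55 ± 0.10, adjusted p = 0.00168), with 3 of 5 tested lower and 1 higher. The part of these cell types in the Notch values was not tested.

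By level per length, the order in wild-type was Dll3, Hes1, Notch3, Notch1, Dll1, Notch2, Hey1, Jag1, Hey2 and Jag2, from 125.4 to 5.92 TPM on average. In Ts1Cje it was Hes1, Notch3, Dll3, Notch2, Jag1, Dll1, Notch1, Hey1, Jag2 and Hey2, from 106.4 to 1.73 TPM. Neighbours whose ranges did not overlap were, in wild-type, Hes1 over Notch3, Notch3 over Notch1, Notch2 over Hey1 and Jag1 over Hey2. In Ts1Cje they were Hes1 over Notch3, Jag1 over Dll1 and Jag2 over Hey2. The other neighbours in each order overlapped.

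For the gene of each role with the largest change, the genes with the most similar pattern over the 6 libraries were taken by the root mean square difference of centred log2 CPM (counts scaled to library size). For Dll1 they were Hes7 (0.22), Pcdh19 (0.25) and Gna14 (0.30). Notch1 had Septin8 (0.06), Fn1 (0.09) and Dnah2 (0.10), and Hey2 had Gng8 (0.14), Tceal3 (0.18) and Hcn4 (0.18). The 6 libraries fall into 2 genotypes and share lot numbers, so likeness here is a description over these libraries.

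Around the 10 genes, 65 other genes of the pathway were examined by role, of which 59 were tested. Of these, 14 were higher and 24 lower in Ts1Cje and 21 did not pass, which is 64.4% called against 43.8% of all genes. Over all genes, 23.3% were higher and 20.5% lower, and the smaller counts by role below are to be read beside these shares. The median log2 fold change of the 59 genes was −0.11, against −0.01 for all genes. At 2-fold or more, 9 rose and 5 fell, but no share of all genes at that cut is given here, so this count has no background beside it.

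The other ligand genes fell. Dll4, the Delta ligand of arterial endothelium, had 1.80, 2.44 and 1.25 TPM in wild-type and 0.363, 0.506 and 0.351 TPM in Ts1Cje (log2 fold change −2.17 ± 0.39, adjusted p = 0.00146). Dlk1, an imprinted Delta-like gene whose protein lacks the receptor-activating domain, fell from 43.5, 125.8 and 145.9 TPM to 2.20, 2.38 and 2.81 TPM (−5.43 ± 0.62, adjusted p = 0.00176). Dlk1 and Jag2 both lie on chromosome 12, and their places relative to the Ts1Cje deletion there were not examined. Dner, a Delta-like transmembrane gene, fell from 7.25 ± 0.26 to 1.83 ± 0.34 TPM (SD, n = 3 each). Dlk2 was too low to be tested. Notch4, the endothelial receptor gene, fell from 1.65, 2.16 and 2.20 TPM to 0.759, 1.48 and 0.944 TPM (−0.94 ± 0.28, adjusted p = 0.0206). Its call was lost without wild-type lot 2 or 3 or Ts1Cje lot 1 or 3 (adjusted p = 0.0654 to 0.0729).

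Genes that modify ligands and receptors went both ways, as did genes at large (23.3% higher and 20.5% lower). Of 4 ubiquitin ligase genes that let ligands be internalised, 3 fell and 1 rose. Mib1, the main one, fell from 63.7 ± 1.11 to 50.6 ± 4.45 TPM, and Neurl1b fell from 1.503 ± 0.60 to 0.520 ± 0.092 TPM. Among 6 glycosyltransferase genes, which add sugars that tune ligand choice, 2 fell and 1 rose. Mfng, a Fringe gene, rose from 0.501, 0.491 and 0.363 TPM to 3.20, 8.79 and 5.48 TPM (log2 fold change 3.65 ± 0.43, adjusted p = 0.000121). Eogt, which adds N-acetylglucosamine to the receptor, fell from 19.3 ± 5.99 to 9.20 ± 0.77 TPM.

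Of 10 protease genes that cut the receptor, 4 rose and 2 fell. Adam10, the sheddase that makes the first ligand-dependent cut, rose from 61.0 ± 2.48 to 88.3 ± 12.7 TPM (0.52 ± 0.10, adjusted p = 0.00215). The gamma-secretase subunit gene Aph1c rose by a log2 value of 1.10 ± 0.34 while its close copy Aph1b fell by 0.61. How reads that match both copies were counted is not stated, so both values are uncertain. The Aph1c call was lost without wild-type lot 3 or Ts1Cje lot 1 or 3.

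In the nuclear complex, 5 of 9 genes fell and 2 rose. Rbpj had 23.6, 25.5 and 22.8 TPM in wild-type and 20.7, 21.4 and 22.3 TPM in Ts1Cje (−0.16 ± 0.07, adjusted p = 0.0804), and passed with upper-quartile factors. Of the Mastermind coactivators, Maml1 fell from 66.7 ± 1.23 to 43.9 ± 3.90 TPM (−0.61 ± 0.07, adjusted p = 0.000132), Maml3 fell by 0.38, and Maml2 rose from 1.19 ± 0.31 to 2.56 ± 0.68 TPM. Snw1 (−0.26), Crebbp (−0.23) and Kat2a (−0.20) fell, Kat2b rose (1.09), and Ep300 did not pass (0.03). The calls of Crebbp and Kat2a were each lost in 5 of 15 alternatives, among them leaving out wild-type lot 2 or 3 or Ts1Cje lot 3.

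Of 14 corepressor genes, 3 were higher and 5 lower, beside 23.3% higher and 20.5% lower over all genes. The Groucho-related gene Tle5 rose from 7.09, 7.79 and 7.32 TPM to 55.7, 60.0 and 65.2 TPM (3.02 ± 0.11, adjusted p = 4.1e-07), and Tle2 from 0.3999, 0.476 and 0.387 TPM to 3.21, 5.39 and 4.19 TPM (3.32 ± 0.27). Tle1 (0.98) rose too, while Tle3 (−0.43) and Tle4 (−0.53) fell. Among 10 genes of receptor turnover and feedback, 2 rose and 3 fell. The Deltex genes Dtx1 (1.78 ± 0.35) and Dtx4 (1.95 ± 0.20) rose. Nrarp, a target gene whose product dampens the pathway, fell from 55.3, 37.8 and 37.6 TPM to 32.2, 30.4 and 25.2 TPM (−0.58 ± 0.16, adjusted p = 0.0147), a call lost without Ts1Cje lot 3.

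Of 7 other HES and HEY genes, 2 were tested. Hes6, whose product opposes HES1, rose from 26.2, 24.9 and 28.8 TPM to 58.8, 62.1 and 53.6 TPM (log2 fold change 1.12 ± 0.11, adjusted p = 4.46e-05). Hes7 is given above with Dll1. Hes5, a widely used readout of Notch activity in neural cells, was at 0.511 to 1.89 TPM in wild-type and 0.143 to 1.74 TPM in Ts1Cje, and Heyl, Hes2, Hes3 and Helt were also too low to be tested.

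**Figure D5:**
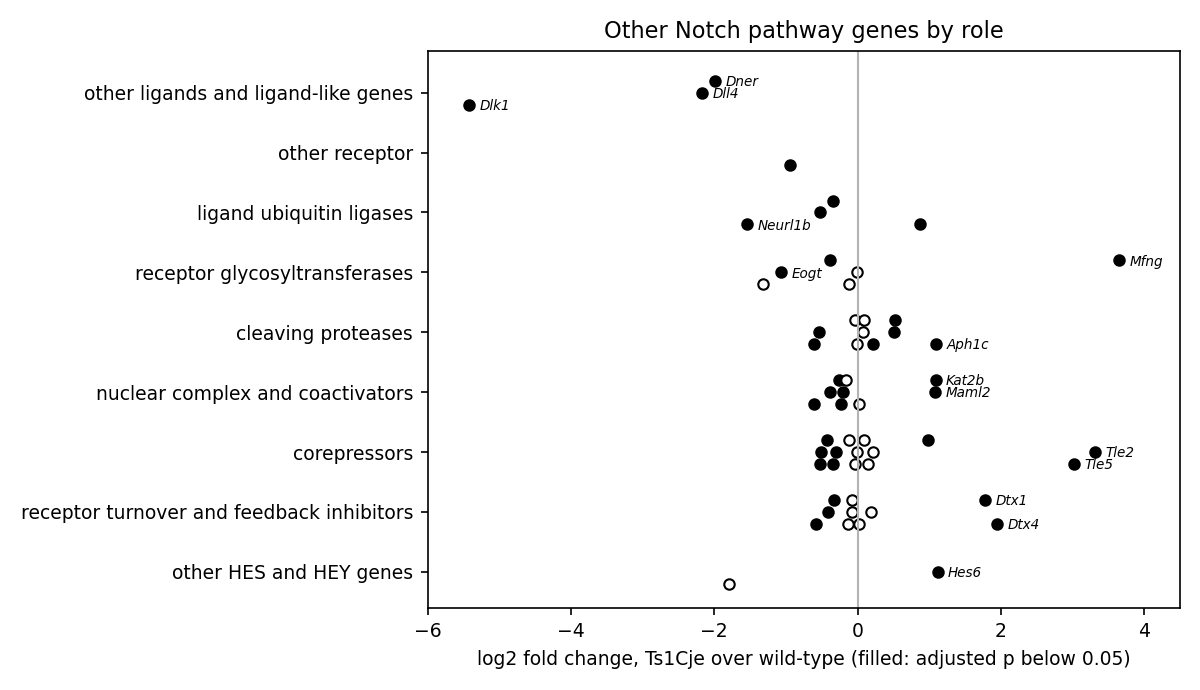
Log2 fold change (Ts1Cje over wild-type) of the 59 tested other genes of the Notch pathway, in rows by role, filled where the adjusted p was below 0.05 and named where the change was also at least 2-fold. The 3 tested other ligands lie left of 0, and Mfng, Tle2 and Tle5 lie beyond 3.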

How the data were processed

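RNA was measured in 6 libraries, 3 per genotype, grouped and numbered by the lots in the labels; poly(A) selection and a directional kit were used, per the labels' protocols. The deposited tables hold 1 row per Ensembl gene, one with raw counts of reads and one with the authors' TPM. Per the submitters' processing notes, FastQC 0.11.7, Trimmomatic 0.38, HISAT2 2.1.0, featureCounts 1.6.3 and mm10 were used; the sources used here do not state their settings, the counting strand or the handling of multi-mapping reads.

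From the counts, genes were kept with filterByExpr (minimum count 10, minimum total 15), scaled with TMM and tested with edgeR 4.0.16 (R 4.3.3; robust glmQLFit, glmQLFTest, no covariate), adjusted with Benjamini-Hochberg over all genes kept. The SE was taken as the size of the log2 fold change divided by the root of the F statistic. Levels are TPM, compared by exact permutation only as shares and sums. The test was also run on simulated counts with the same fixed spread for every gene. That spread was not taken from these data, so the run does not cover genes that varied strongly between lots, such as Dll1. The 15 alternatives comprise other scalings, filters and tests (DESeq2 1.42.0, limma 3.58.1), a lot block and leaving out each library.

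The 10 genes and the pathway and marker lists were chosen with earlier results of these data known. Named were all 10 genes, the other ligand, receptor, nuclear complex and HES or HEY genes, and other pathway genes called at 2-fold or more. Further pathway and marker genes were named after their values were seen. The pathway genes among them were Lfng, Nrarp, Adam10, Mib1, Tle1, Tle3, Tle4 and Aph1b. The marker genes were Tbx6, Msgn1, Mesp1, Mesp2, Pcdh8, Gja4, Efnb2, Cdh5, Tie1, Kdr, Etv2, Tcf15, Meox1, Csf1r, Cd68 and Spi1. The marker lists of neural, macrophage, primitive erythroid and fibroblast genes had 3 of 4, 1 of 2, 1 of 3 and 0 of 3 tested genes higher in Ts1Cje, and 0, 0, 0 and 2 lower.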

Additional observations from a re-analysis of the deposited data

How the results depend on the processing

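Counts over all genes and over the other pathway genes stayed within 1.5 times their values in the 15 alternatives, and Notch1, Hey1 and Hey2 were called lower in each of them. The number of Notch genes called higher, 1, was 2 with the lot as a replicate block, where Jag2 passed (log2 fold change 0.40, adjusted p = 0.0472), and ran from 0 (without wild-type lot 3 or Ts1Cje lot 3) to 1 on leaving out 1 library; without wild-type lot 1, Jag2 passed in place of Jag1. Fewer libraries enter those fits, and for the block the cause was not tested. Same-numbered lots deviated together with correlations of 0.219, 0.0589 and 0.202 across genes, and every library correlated best with its own number, a hint from the data; they count here as sharing only a number, and the block changed no other call of the 10. The following values near 0 changed sign without passing: Notch2 ran from −0.0499 to 0.0061 and Notch3 from −0.162 to 0.0480 on leaving out 1 library, and Ep300 was −0.0028 with upper-quartile factors and ran from −0.0092 to 0.0735 on leaving out 1 library. Of 27 other pathway genes followed through the alternatives, 18 of the 23 called kept their call in each. On log2(TPM + 1), which understates change at low levels by construction, Tle2 was 1.87, Mfng 2.15, Hey2 −2.09 and Dll4 −0.99. Depth limits the low genes: Hey2 had 32 to 54 reads per Ts1Cje library and Dll4 8 to 10. Mean log2 CPM of at least 1 left Dll4 and Aph1c untested.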
